A study of Bos taurus with 64 samples.

Results

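Pre-mRNA splicing and RNA-binding genes were followed in the muscles of cows killed with or without a stress before slaughter. The genes were taken by the start of their name on the array (SRSF, SFRS, HNRNP, HNRP, SF3, SNRP, PRPF, U2AF, DDX, DHX, RBM, LSM, CPSF, CSTF, PTBP, PCBP or KHDR), without use of any measured value. This gave 17 of the 5449 genes of the array and 19 of its 13285 probes, with members for 9 of the 17 name starts. The members were 7 DEAD-box helicases (DDX3X, DDX4, DDX5, DDX19A, DDX20, DDX39 and DDX56) and 10 others (DHX8, HNRNPH1, HNRNPK, KHDRBS3, LSM5, PRPF19, PRPF31, PTBP1, RBM3 and U2AF1). RNA came from the M. longissimus thoracis (LT), a muscle of the back, and the M. semitendinosus (ST), a muscle of the thigh, of 32 Normand cows, aged about 4.5 years, and 1 single-colour Agilent array was hybridized for each muscle of each cow, 64 in all. Of these cows, 16 were stressed (called moderated stress in the labels), with transport alone and 30 min in a labyrinth on an unknown farm, and 16 were handled with limited stress. In each of these groups 8 cows had received the control diet (Lipid-rich) and 8 the EP diet (Lipid VitE PERP, the same diet with vitamin E and a mixture of plant extracts rich in polyphenols) over a finishing period of 101 days. All cows therefore ate a diet rich in lipids, and all muscles were sampled within 15 min of slaughter.

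In a muscle cell nucleus, introns are removed from pre-mRNA by the spliceosome, a particle of small nuclear RNAs and proteins that is rebuilt on each intron. RNA helicases of the DEAD-box and DEAH-box families drive its changes of shape, and hnRNPs and other RNA-binding proteins select which exons are kept. Many muscle proteins, such as troponins and titin, are made in several spliced forms that differ between fibre types. The names chosen do not all stand for splicing factors. DDX4 (vasa) is a helicase of germ cells, DDX56 acts in ribosome assembly, DDX19A in the export of mRNA through the nuclear pore, and DDX3X mainly in translation, so that "splicing" holds for most of the members only. Whether each member binds RNA itself was not tested.

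Each gene was read by 1 probe of 60 bases, except DDX19A and HNRNPK, which had 2. A stretch of 30 bases is shown for the probes on which the results below turn, 5′ to 3′ and as the array files give it, with the hexamer AATAAA, the poly(A) signal, in capitals where it occurs.
DDX5: gatttgaaatacAATAAAtgaaggcaatgc
DDX3X: ctgattttattaaAATAAAagttgaactgc
RBM3: ccacctctccaaatgactgtatttataaag
PTBP1: aattttggaccaaagttttgtttctgtttt
KHDRBS3: tgcttaaaatctgaatggatggaatttaaa
PRPF19: ggcctctcttcgaggagttgatggagttga
HNRNPK, probe A_73_105972: ggaggaaaagtaacagtagtccatatgtcc
HNRNPK, probe A_73_112576: aaccagccagctcccgctcgaatctgatgc
DDX19A, probe A_73_118997: ccaatggtgttatcaaaaccaatgccactc
DDX19A, probe A_73_119683: gatgacggcacgagtagacaaactgcctac
In the build Btau_3.1 of the array files, the DDX5 probe lay at chr19:50216999-50217058 on the minus strand, that of DDX3X at chr8:54005433-54005489 on the plus strand and that of RBM3 at chrX:55773319-55773378 on the minus strand. The PTBP1, KHDRBS3 and PRPF19 probes lay on the minus strand at chr23:25874621-25874679, chr14:5765177-5765236 and chr29:38963931-38963990. The probes of HNRNPK and DDX19A also lay on the minus strand. The first HNRNPK probe lay at chr8:81411740-81411799 and the second spanned 556 bases, chr8:81415892-81416447. The first DDX19A probe spanned 3863 bases, chr18:1097068-1100930, and the second lay at chr18:1086550-1086609. Where the span is longer than the probe, the bases of the probe align in pieces. Whether the probes lie in coding sequence or in a UTR was not analysed here, since no genome of this build was used. A table of RefSeq genes of another assembly places DDX3X and PTBP1 on other chromosomes than the files do, and the spans of their probes, 57 and 59 bases, are shorter than a probe. Names and positions are those of the files, and whether these probes read a copy of the gene was not tested. The letters AATAAA occurred in 9.92% of the 13270 probes of this length on the array and in 2 of the 19 member probes, those of DDX5 and DDX3X. The letters TTTATT, the same hexamer on the other strand, occurred in 3.55% of the probes and also in 2 members, DDX3X and DHX8.

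The level of a probe is given below as its processed signal in percent of the 75th percentile of the signals of the array, so that 100% is a spot at that percentile, and levels are compared between arrays and never between probes. From 71.4% to 80.9% of an array's spots were well above background, and no member spot was saturated. The skeletal muscle markers fixed for this tissue were well above background on every array for the 8 of 10 that the array carries. In each muscle the arrays of 1 stressed cow, cow321, stood apart: its median correlation with the other arrays was 0.960 in both the LT and the ST, where the next lowest were 0.977 and 0.981. Values without this cow are therefore given beside several results that rest on it, but not for the diet values of single genes. In bulk muscle, fewer cells of a type and less RNA per cell cannot be told apart.

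All 32 arrays of each muscle were well above background for every member probe, with 3 exceptions. DDX4 was well above background on 1 LT array and on no ST array, and was therefore tested in neither muscle. That LT array came from stressed cow330 and read 22.1%, where the other LT arrays read between 0.0456% and 0.176% and the ST arrays between 0.0501% and 0.156%, the ST array of the same cow included. KHDRBS3 was well above background on 30 LT and 24 ST arrays, and the first DDX19A probe on 31 LT and 32 ST arrays. This left 16 genes and 18 probes that were tested in both muscles. Following the rule of the study, a gene counts as called where 80% or more of the probes tested for it passed an adjusted p of 0.1, all in 1 direction.

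In the LT, 1 of the 16 members (6.25%) was higher in stressed cows, where 3.73% of all 4311 genes tested were called, 2.20% higher and 1.53% lower. The member was DDX5, known as p68, a helicase that acts in splicing and as a partner of MyoD. Its LT level ranged from 16.1% to 29.5% in cows handled with limited stress (median 23.2%) and from 23.5% to 53.5% in stressed cows (median 27.1%). All 16 stressed cows were above the limited stress median and 5 were above every limited stress cow, but the groups overlapped. The log2 fold change (stress / limited stress) of DDX5 was 0.30 (SE 0.090, 95% interval 0.12 to 0.49, limma, n = 16 cows per group, adjusted p = 0.0663). It was above 0 within each of the 4 slides that carried LT arrays, at 0.23 to 0.31. Slides 1 to 4 held 5, 2, 5 and 4 stressed and 3, 6, 3 and 4 limited stress arrays. The call was close to the threshold. Without cow321 it was 0.24 (adjusted p = 0.0726), but it was lost without any 1 of cow251, cow258, cow270, cow280 or cow308 (adjusted p = 0.101 to 0.119), with the cow as a replicate block over both muscles (0.30, adjusted p = 0.116), and with scaling by the control features (0.12, adjusted p = 0.652).

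**Figure D1:**
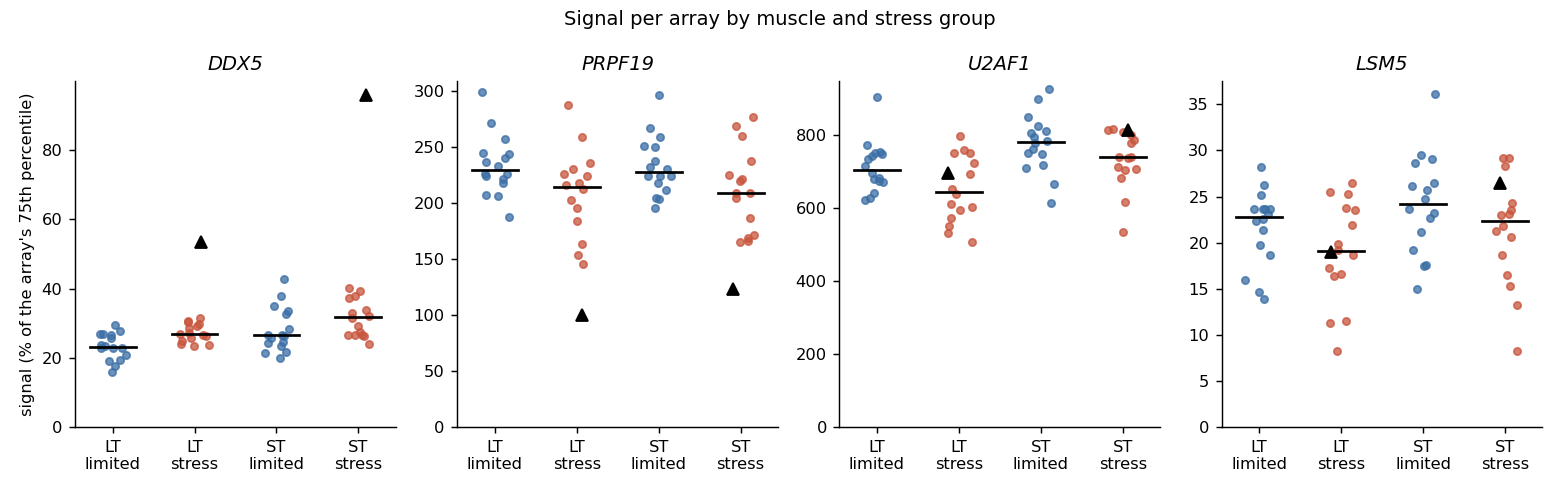
Level of DDX5, PRPF19, U2AF1 and LSM5 on each array, in percent of the 75th percentile of the array, by muscle and stress group (blue, limited stress; red, stress; line, median; black triangle, cow321; 16 cows per group). In the LT all 16 stressed cows lie above the limited stress median of DDX5, and cow321 is the highest for DDX5 and the lowest for PRPF19 in both muscles.

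The other 15 genes were not called in the LT. At an unadjusted p under 0.05, 3 of the 18 member probes passed (16.7%), against 16.0% of all probes, and the median log2 fold change of the members was -0.05, as was that of all genes. Of the 16 members, 9 had a log2 fold change below 0. PRPF19, the ubiquitin ligase at the centre of the complex that activates the spliceosome, ranged from 188% to 299.2% in limited stress cows (median 230%) and from 101% to 288% in stressed cows (median 214%). Of the stressed cows, 12 were below the limited stress median and 5 below every limited stress cow. Its log2 fold change was -0.23 (SE 0.101, unadjusted p = 0.0285, adjusted p = 0.244, limma) and -0.17 without cow321, and it was below 0 in 3 of the 4 slides. U2AF1, the subunit of U2AF that reads the AG at the end of the intron, ranged from 621% to 903% in limited stress cows (median 705%) and from 508% to 795% in stressed cows (median 645%). The groups overlapped, with 7 stressed cows below all limited stress cows. Its log2 fold change was -0.14 (SE 0.0644, adjusted p = 0.289, limma) and it was below 0 in each of the 4 slides.

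LSM5, of the ring of LSM proteins on the U6 RNA, ranged from 13.9% to 28.2% in limited stress cows (median 22.8%) and from 8.27% to 26.5% in stressed cows (median 19.1%), and its log2 fold change was -0.22 (SE 0.139, adjusted p = 0.440), below 0 in 2 of the 4 slides. PRPF31, which holds the tri-snRNP together, was at -0.11 (SE 0.0669, adjusted p = 0.439) and also below 0 in each of the 4 slides. DDX56, a nucleolar helicase of ribosome assembly, ranged from 49.3% to 71.1% in limited stress cows (median 62.2%) and from 45.1% to 71.0% in stressed cows (median 54.3%). The groups overlapped almost wholly at their upper ends, and its log2 fold change was -0.11 (SE 0.0614, adjusted p = 0.372), below 0 in 3 of the 4 slides. PTBP1, a repressor of exons specific to muscle and nerve, was at 0.11 (SE 0.0607, adjusted p = 0.376), with 5 stressed cows above and 1 below every limited stress cow, and above 0 in 3 of the 4 slides. It was 0.15 for KHDRBS3 and 0.03 for HNRNPH1. The second HNRNPK probe was at 0.17 (unadjusted p = 0.0616) and the first at -0.00126, so the probes of this gene did not read the same difference. With scaling by the control features, which moved the median of all genes by -0.18, the values of PTBP1, KHDRBS3, HNRNPH1 and DDX3X fell below 0. The mean of the HNRNPK probes did so too. Relative to the median of all genes, DDX5 was at 0.36 under both scalings. Each scaling shifts all probes of an array by the same amount, so this value stays nearly the same by construction and is no separate support.

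**Figure D2:**
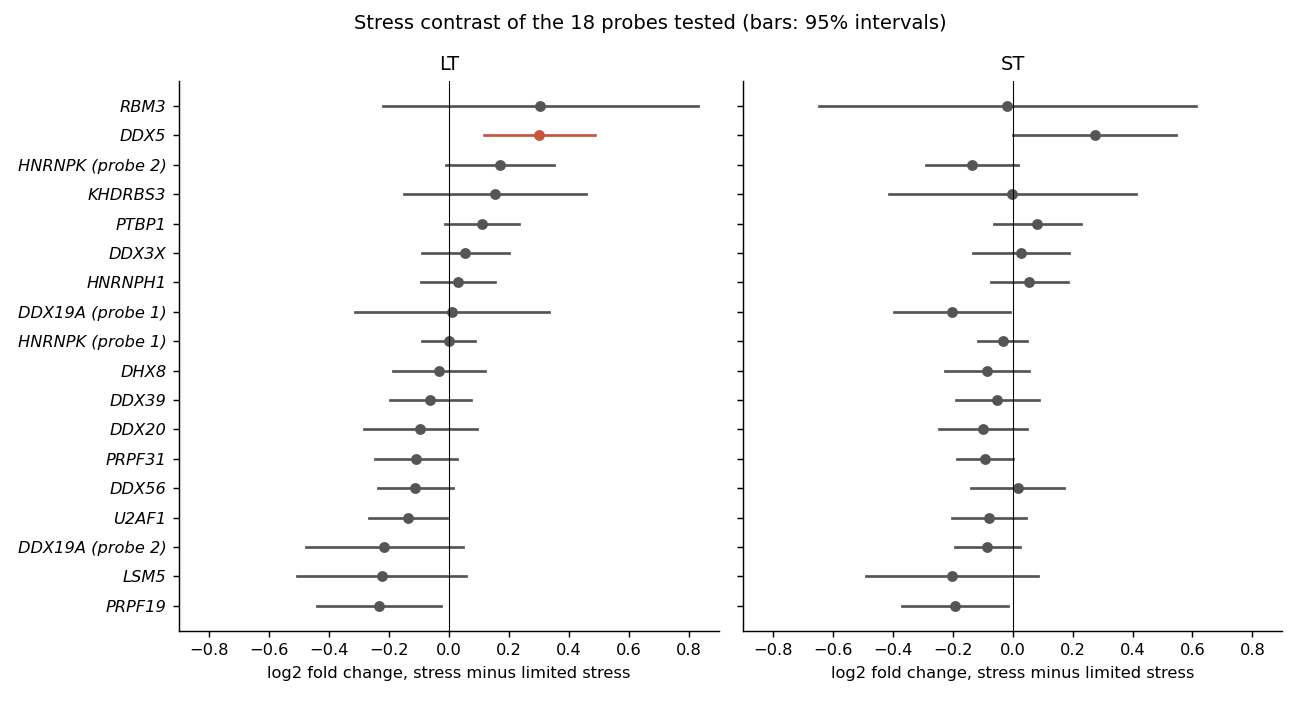
Log2 fold change (stress / limited stress) of the 18 member probes tested, in each muscle, with 95% intervals (red, adjusted p under 0.1; grey, other; probe 1 and probe 2 are the first and second probe of a gene with 2). The only probe past the threshold is that of DDX5 in the LT at 0.30. With scaling by the control features the gene values (means of probes) of PTBP1, KHDRBS3, HNRNPH1, HNRNPK and DDX3X change sign in the LT. In the ST those of DDX39, DHX8, HNRNPK, KHDRBS3, PRPF31, RBM3 and U2AF1 do.

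No member was called for stress in the ST, where 3.60% of the 4246 genes tested were called, 1.48% higher and 2.12% lower (limma). At an unadjusted p under 0.05, 3 of the 18 member probes passed (16.7%), against 17.4% of all probes. No member was called with any of the 8 other settings run for this comparison. DDX5 ranged from 19.9% to 42.8% in limited stress cows (median 26.6%) and from 24.1% to 95.9% in stressed cows (median 31.8%). Of the stressed cows, 14 were above the limited stress median, and 1, cow321, was above every limited stress cow. Its log2 fold change was 0.27 (SE 0.134, unadjusted p = 0.0492, adjusted p = 0.286), and 0.18 without cow321. Within the 5 slides of the ST it ranged from -0.13 to 0.73 and was above 0 in 3 of them. The slides were uneven, with 2, 2, 5, 1 and 6 stressed and 3, 6, 3, 3 and 1 limited stress arrays. The lowest value came from slide 4, with 1 stressed array. The highest came from slide 5, with 1 limited stress array and cow321 among the stressed. PRPF19 ranged from 196% to 296% in limited stress cows (median 228%) and from 124% to 276.9% in stressed cows (median 209%), with 6 stressed cows below all limited stress cows. Its log2 fold change was -0.19 (SE 0.0864, unadjusted p = 0.0340, adjusted p = 0.239, limma), and -0.22 to -0.14 with any 1 cow left out. The first DDX19A probe was at -0.20 (unadjusted p = 0.0402, adjusted p = 0.261) and the second at -0.08 (adjusted p = 0.428). LSM5 was at -0.20 (adjusted p = 0.470), DDX20, the SMN complex helicase Gemin3, at -0.10 (adjusted p = 0.493) and PRPF31 at -0.09 (adjusted p = 0.291), the last turning to 0.0035 with scaling by the control features.

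The array also carries custom sets of up to 5 probes with no gene name, and for 10 members a probe of such a set had 25 or more consecutive bases in common with the named probe, 50 probes in all. The remaining probes of a set were joined to the member by the set name alone, and whether they read the same transcript was not tested. All are read on the same arrays, so they are no independent samples. For stress, the 5 companion probes of PRPF19 were all below 0 in the LT (-0.26 to -0.19, unadjusted p = 0.0201 to 0.0842) and in the ST (-0.18 to -0.13). Those of U2AF1 were also all below 0, from -0.14 to -0.07 in the LT and from -0.18 to -0.09 in the ST. The 5 of LSM5 ranged from -0.46 to -0.03 in the LT and from -0.43 to -0.03 in the ST, and the 5 of PRPF31 from -0.16 to -0.10 and from -0.11 to -0.04. None of the companion probes had an adjusted p under 0.1 for stress. DDX5 had no companion set, so its difference was read by 1 probe.

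Whether stress acted differently in the muscles was tested in 1 fit of all 64 arrays. No member was called, and neither was any of the 4230 genes (0%; limma). At an unadjusted p under 0.05, 1 of the 18 member probes passed, against 2.71% of all probes. It was the second HNRNPK probe, with a difference of log2 fold changes (LT minus ST) of 0.31 (SE 0.116, unadjusted p = 0.0104, adjusted p = 0.999). This probe read between 51.9% and 111.6% in stressed cows and between 52.8% and 69.7% in limited stress cows in the LT, and between 52.1% and 69.8% and between 49.1% and 105.3% in the ST. In the LT the 3 highest values, 111.6%, 108.1% and 92.1%, came from stressed cow301, cow297 and cow299, all on slide 3, and in the ST the highest came from limited stress cow255, on slide 1. The first HNRNPK probe had a difference of 0.03 (unadjusted p = 0.556). For DDX5 the difference was 0.03 (95% interval -0.30 to 0.35), so that its call in the LT alone was not a tested difference between the muscles. The fit behind these values did not pair the muscles of a cow. With the cow as a replicate block 6 genes were called (0.142%), and 5 with the slide as a random block too (0.118%). Without cow321, in the unpaired fit, 3 were called (0.0709%). No member was among the genes called in these settings.

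Neither the diet nor its interaction with stress called a member or any other gene in the LT or the ST (0% in each of these 4 comparisons; limma). For the diet, 2 of 18 member probes passed an unadjusted p of 0.05 in the LT, against 3.90% of all probes, and 0 of 18 in the ST, against 5.15%. The 2 were DDX5, with a log2 fold change (EP / control diet) of -0.20 (unadjusted p = 0.0386, adjusted p = 0.979), and DDX3X, with -0.15 (unadjusted p = 0.0401, adjusted p = 0.979). Cow321, the highest for both genes, was on the control diet. For the interaction, 0 of 18 passed in the LT (2.64% of all probes) and 1 of 18 in the ST (4.76%), the second DDX19A probe at 0.22 (unadjusted p = 0.0470, adjusted p = 0.969).

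The LT and ST arrays differed for most members. Of the 16 genes, 12 were called between the LT and the ST (75%), where 51.7% of the 4230 genes tested were called, 21.9% higher and 29.9% lower in the LT. The 5 that were higher in the LT were KHDRBS3, PTBP1, HNRNPH1, PRPF31 and DDX56, and the 7 that were higher in the ST were RBM3, DHX8, DDX5, DDX39, DDX3X, DDX20 and U2AF1. LSM5 and PRPF19 were not called, although LSM5 was higher in the ST in 24 of 32 cows and was called so with the cow as a replicate block (-0.16, adjusted p = 0.0400; 0.027 and not called with the control features), and DDX19A and HNRNPK had 1 of 2 probes past the threshold. At an unadjusted p under 0.05, 14 of the 18 member probes passed, against 57.0% of all probes. The median log2 difference (LT minus ST) was -0.15 over the members and -0.03 over all genes. Every slide and every scan day held arrays of 1 muscle only. A difference between the muscles can therefore not be told apart from one between slides or scan days. Taking these as random blocks cannot separate them. The main fit did not pair the muscles of a cow. With the slide as a random block 11 members were called, without DDX56, and with the scan day as a random block 9, without DDX56, DDX5 (adjusted p = 0.100) and DDX20 (adjusted p = 0.120). Scaling by the control features moved the median of all genes by 0.19 and left 6 members called, 5 higher in the LT and RBM3 higher in the ST. It left 32.9% of all genes called.

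The muscles also differed in their fibres, which stand beside these values. Of the 8 slow fibre markers tested, 6 were higher and 1 lower in the LT (median log2 difference 0.51), and all 6 fast fibre markers tested were lower. Summed over the slow fibre markers, the level was 21482% to 35798% in the LT of all cows and 15167% to 34143% on the ST arrays that kept every spot of these markers (13 limited stress and 16 stressed). Of the 8 general skeletal muscle markers 7 were lower in the LT, with a median of -0.17. The part of the fibres in the differences of the members was not tested.

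Of the genes higher in the LT, KHDRBS3, a protein of the STAR family that regulates alternative exons, read between 0.381% and 1.67% in the LT (median 0.752%) and between 0.230% and 1.14% in the ST (median 0.578%). The LT was above the ST in 29 of the 31 cows with both values, although the ranges of the muscles overlapped. Its log2 difference was 0.54 (SE 0.126, adjusted p = 0.000301, limma), and 4 of 4 companion probes tested were past the threshold (0.57 to 0.72). With the normexp correction and quantile normalization it was 0.14 (adjusted p = 0.000545). PTBP1 read between 16.2% and 27.6% in the LT (median 19.5%) and between 12.6% and 21.5% in the ST (median 16.2%). It was higher in the LT in 31 of 32 cows, and in the remaining cow the log2 difference was -0.00351. Its log2 difference was 0.32 (SE 0.0459, adjusted p = 5.79e-08), the lowest adjusted p among the members. HNRNPH1, an hnRNP that binds runs of G, read between 352% and 548% in the LT (median 413%) and between 273% and 488% in the ST (median 373%). It was higher in the LT in 27 of 32 cows, with a log2 difference of 0.19 (SE 0.0429, adjusted p = 0.000187), and its 5 companion probes were all past the threshold (0.16 to 0.25).

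PRPF31 was higher in the LT in 25 of 32 cows, with a log2 difference of 0.15 (SE 0.0392, adjusted p = 0.00114). Its companion probes did not read the same difference: 3 were past the threshold above 0 and 1 below, over a range of -0.36 to 0.21. DDX56 was higher in the LT in 25 of 32 cows, with a log2 difference of 0.11 (SE 0.0481, adjusted p = 0.0536). This call was lost with the slide or the scan day as a random block (adjusted p = 0.173 and 0.230).

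Among the genes higher in the ST, RBM3 had the largest difference of all members. RBM3 encodes an RNA-binding protein that is induced by mild cold. It read between 9.63% and 87.2% in the LT (median 14.1%) and between 10.9% and 86.7% in the ST (median 29.2%). The ranges of the muscles thus covered each other, but the ST was higher in 28 of 32 cows. The log2 difference was -0.92 (SE 0.204, adjusted p = 0.000133), and all 5 companion probes were past the threshold (-0.92 to -0.53). DHX8, the helicase that releases the finished mRNA from the spliceosome, read between 76.7% and 134.7% in the LT (median 94.2%) and between 78.9% and 142% in the ST (median 114%). It was higher in the ST in 25 of 32 cows, with a log2 difference of -0.26 (SE 0.0503, adjusted p = 1.72e-05). DDX5 read between 16.1% and 53.5% in the LT (median 26.1%) and between 19.9% and 95.9% in the ST (median 27.97%). It was higher in the ST in 24 of 32 cows, with a log2 difference of -0.25 (SE 0.0812, adjusted p = 0.00791), and -0.23 without cow321.

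The other 4 were close to each other in size. The log2 difference was -0.18 for DDX39, a helicase of mRNA export, -0.17 for DDX3X, -0.17 for DDX20 and -0.15 for U2AF1 (-0.24 with the normexp correction), with adjusted p between 0.000904 and 0.0107. DDX39 and DDX20 were higher in the ST in 28 of 32 cows each, DDX3X in 27 and U2AF1 in 24. Scaled by the control features, these 4 genes turned to 0.0071, 0.014, 0.014 and 0.035, none of them called, and DHX8 and DDX5 kept their direction but not their call. Relative to the median of all genes the differences in the main setting were -0.15 for DDX39, -0.14 for DDX3X, -0.14 for DDX20, -0.12 for U2AF1, -0.23 for DHX8 and -0.22 for DDX5. A change of the scaling of whole arrays leaves these relative values nearly the same by construction. In the companion sets, 3 of 5 probes of U2AF1, 3 of 5 of DDX39 and 2 of 5 of DDX3X were past the threshold, all lower in the LT.

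**Figure D3:**
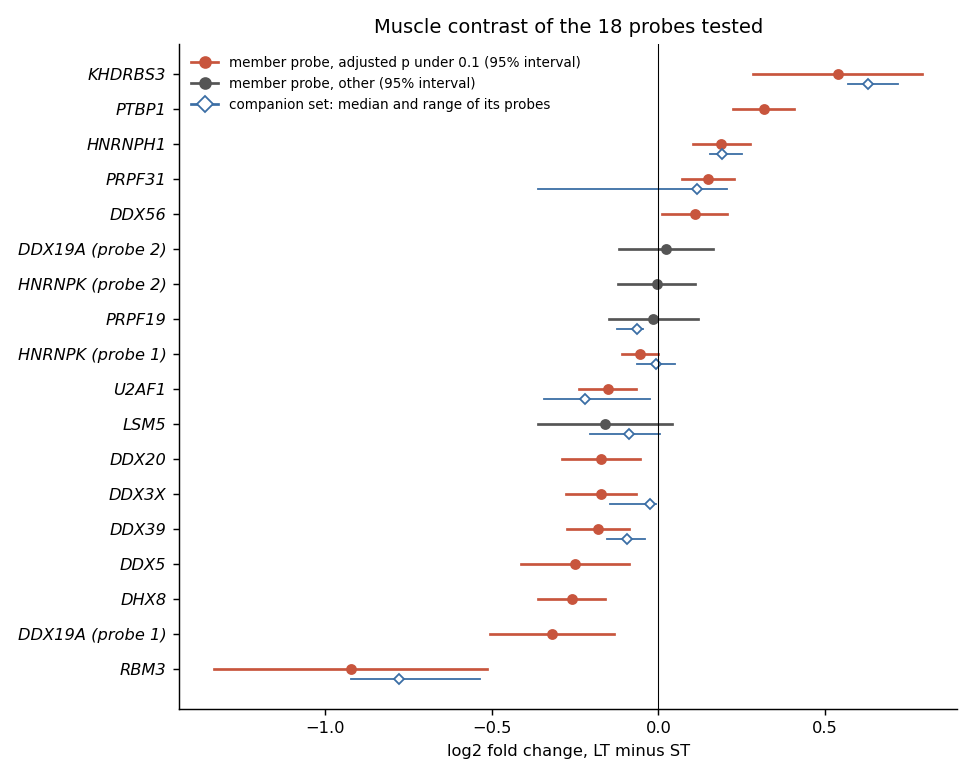
Log2 difference between the muscles (LT minus ST) of the 18 member probes tested, with 95% intervals (red, adjusted p under 0.1; grey, other), and the median and range of the companion probes where a member has a set (blue). KHDRBS3 and PTBP1 lie highest at 0.54 and 0.32 and RBM3 lowest at -0.92; with the normexp correction KHDRBS3 is at 0.14, below PTBP1 (0.31), HNRNPH1 (0.16) and PRPF31 (0.16); with scaling by the control features DDX20, DDX39, DDX3X and U2AF1, here below 0, lie at 0.0071 to 0.035.

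In each gene with 2 probes, only the first passed the threshold between the muscles. The first DDX19A probe was at -0.32 on the log2 scale (SE 0.0934, adjusted p = 0.00335) and lower in the LT in 25 of 32 cows. It read only 0.612% to 1.71% in the LT and 0.980% to 2.15% in the ST, and differed between LT slides (adjusted p = 0.000807, limma). The second was at 0.02 (adjusted p = 0.801), a mean that includes the LT array of cow255 at 362%, where the next highest read 118%. In 21 of 32 cows it was also lower in the LT, with a median of -0.04. For HNRNPK, an abundant hnRNP that binds runs of C, the first probe was at -0.05 (SE 0.0272, adjusted p = 0.0852) and the second at -0.00493 (adjusted p = 0.951). In its companion set 1 of 5 probes was past the threshold (-0.07 to 0.05).

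The members differed widely in how much they varied between cows of the same group. The SD within groups, on the log2 scale, was largest for RBM3, with 0.76 in the LT and 0.91 in the ST, above 93.8% and 96.2% of all genes tested. KHDRBS3 had 0.43 and 0.58, and LSM5 0.40 and 0.41. The median gene had 0.30 in the LT and 0.28 in the ST. The smallest SDs were those of HNRNPK (0.13), PTBP1 (0.16) and HNRNPH1 (0.16) in the LT, and PRPF31 (0.11), HNRNPK (0.13) and U2AF1 (0.16) in the ST. For PRPF31 only 1.72% of the genes tested had a smaller SD in the ST.

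In the LT the level of RBM3 differed between slides (adjusted p = 0.0253, limma). Its median was 11.8% and 11.4% on slides 1 and 2, 16.1% on slide 3 and 22.6% on slide 4. In the ST the slide medians ranged from 19.1% to 43.8%, and the difference was not called (adjusted p = 0.674). The highest LT values were 87.2% in stressed cow305 and 59.7% in stressed cow324, on different slides. For stress the log2 fold change of RBM3 was 0.31 in the LT (95% interval -0.22 to 0.83, adjusted p = 0.586) and -0.02 in the ST (95% interval -0.65 to 0.61, adjusted p = 0.984). Of the 18 member probes, 6 differed between slides in the LT, where 30.8% of all probes did, and 0 in the ST, where 2.79% did (1 of 18 at an unadjusted p under 0.05). The 6 were those of RBM3, PRPF31, DDX39 and DHX8, the first of DDX19A and the second of HNRNPK. Slides 1 and 2 of the LT were scanned on 1 day, and slides 3 and 4 on another.

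**Figure D4:**
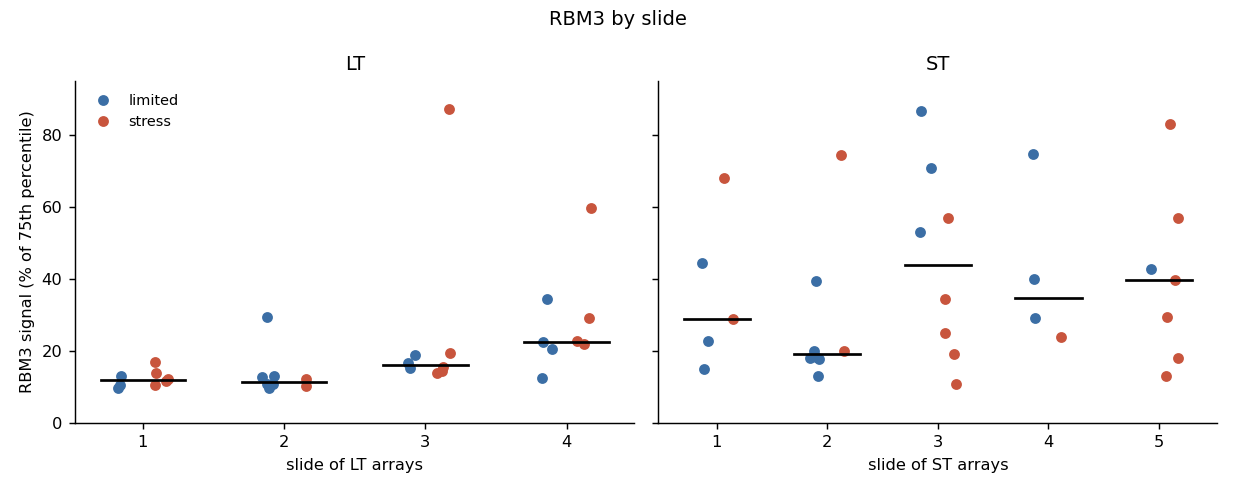
Level of RBM3 on each array, in percent of the 75th percentile of the array, by slide within the LT (4 slides) and the ST (5 slides); blue, limited stress; red, stress; line, median of the slide. The median was 11.8% and 11.4% on slides 1 and 2 of the LT and 22.6% on slide 4, and single arrays reach over 80% in both muscles.

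The muscles of a cow were paired, which shows which members kept their order between cows. For each of the 18 member probes, the deviation of a cow from the mean of its stress and diet group in the LT was correlated with that in the ST, in 18 relations, with permutation tests of 100000 resamples and unadjusted two-sided p. The median r over all probes was 0.42. KHDRBS3 had r = 0.80 and rho = 0.78 over 31 cows (p = 1e-05 for both, the smallest that these permutations can give), and r = 0.74 without the 2 farthest cows. LSM5 had r = 0.79 (p = 1e-05) and rho = 0.63 (p = 0.00012), and r = 0.67 without the 2 farthest cows. PTBP1 had r = 0.74 and rho = 0.73 (permutation p = 1e-05 for both), and r = 0.64 without the 2 farthest cows. With the slide means removed, the median over all probes was 0.47, and r was 0.78 for KHDRBS3, 0.86 for LSM5 and 0.82 for PTBP1. A cow that was high for these genes in the LT was thus mostly high in the ST.

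PRPF19 had r = 0.65 (p = 7e-05) and rho = 0.57 (p = 0.00078), and DDX56 r = 0.59 (p = 0.00029) and rho = 0.59 (p = 0.00049), by permutation. Without the 2 farthest cows these were r = 0.42 and r = 0.59, and with the slide means removed r = 0.68 and 0.53. For DDX3X and DDX5 the correlation rested on cow321. DDX3X had r = 0.61 (permutation p = 0.00428) but rho = 0.26 (p = 0.160), and r = 0.21 without cow321 or without the 2 farthest cows. DDX5 had r = 0.59 (permutation p = 0.00164) but rho = 0.27 (p = 0.133), and r = 0.30 without cow321 and 0.17 without the 2 farthest cows. RBM3 had r = 0.27 (permutation p = 0.132), rho = 0.46 (p = 0.00875) and r = 0.50 without the 2 farthest cows, but with the slide means removed r was 0.05. Slides 2 and 3 carried the same cows in both muscles, so removing slide means also removes differences between these blocks of cows. HNRNPK had r = 0.03 for both probes (permutation p = 0.858 and 0.869).

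**Figure D5:**
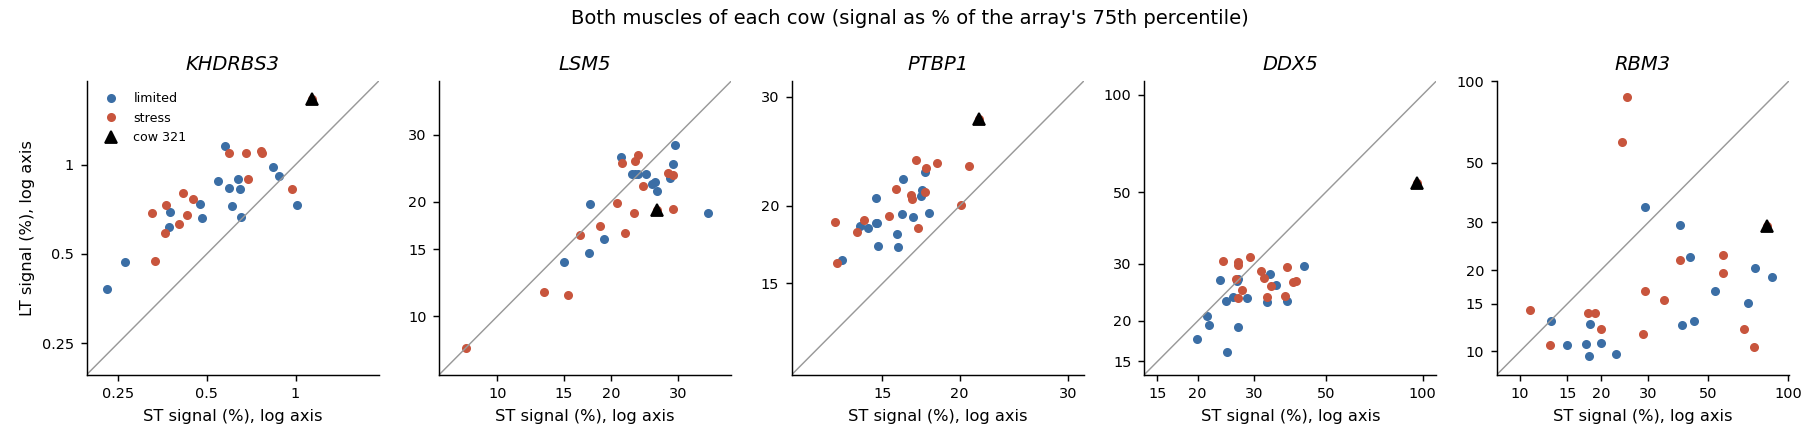
Level in the LT against the level in the ST for each cow, in percent of the 75th percentile of the array, on log axes, for KHDRBS3 (31 cows), LSM5, PTBP1, DDX5 and RBM3 (32 cows each); grey line, equal levels; black triangle, cow321. KHDRBS3 and PTBP1 lie mostly above the line and keep the order of the cows in both muscles, while the relation of DDX5 rests on cow321.

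Cow321 was the highest of all cows in both muscles for DDX3X, DDX5, DHX8, KHDRBS3 and PTBP1, and the lowest in both for PRPF19, 6 of the 18 member probes. Over all 10254 probes it was the highest in both muscles for 8.34% and the lowest for 11.5%, 19.8% together, where the next cow reached 2.90%. Its DDX5 level was 53.5% in the LT, where no other cow exceeded 31.5%, and 95.9% in the ST, where no other cow exceeded 42.8%. Its DDX3X level was 190.5% in the LT and 245% in the ST, against at most 136% and 139.8% in the other cows. Its PRPF19 level was 101% in the LT and 124% in the ST, against at least 146% and 166%. Without this cow 12 members were still called between the muscles, the same genes, and DDX5 was still the only member called for stress in the LT. Of all genes, 52.3% and 3.41% were then called in these comparisons. Single arrays of other cows also stood out. Limited stress cow255 read 362% for the second DDX19A probe in the LT, where the next highest array read 118%, and 277.4% for DDX20, where the next highest read 147%, cow321.

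Of a list of 121 other genes of splicing and mRNA processing, 11 were on the array, and all were tested. In the LT, 1 was higher in stressed cows, SFPQ, a partner of NONO in splicing and transcription (log2 fold change 0.35, adjusted p = 0.00459, limma). An unadjusted p under 0.05 was reached by 3 of the 11. Over the array, 3.73% of genes were called for stress in the LT and 16.0% of probes reached such a p. In the ST 0 of 11 were called for stress, and 0 had an unadjusted p under 0.05 (limma). There, 3.60% of all genes were called and 17.4% of all probes reached such a p. Between the muscles, NCBP2 of the cap-binding complex (0.28) and EIF4A3 of the exon junction complex (0.13) were higher in the LT. SON (-0.81), SMG1 (-0.73), PNN (-0.21) and PABPC1 (-0.18) were higher in the ST. Over all genes, 21.9% were called higher and 29.9% lower in the LT. The median of the list was close to that of all genes for stress, -0.02 against -0.05 in the LT and -0.03 against -0.06 in the ST. Of the markers of muscle, fibre types, adipocytes, endothelium, blood, immune cells, fibroblasts and nerve, 0 of the 37 tested in the LT and 0 of the 36 tested in the ST were called for stress, and 0 and 5 had an unadjusted p under 0.05 (limma). The 5 adipocyte genes tested had log2 fold changes of -0.38 to -0.17 in the LT and of -0.75 to -0.39 in the ST. Their part in the values of the members was not tested.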

How the data were processed

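The authors extracted each array with the Feature Extraction software, and the deposited intensities (processed signals) were background-subtracted and detrended per the file headers, with no scaling between arrays and no log2 transformation. The deposited value table held the same intensities. The submitters' processing notes name limma only. Groups came from the sample labels. Spots that the software set aside were removed. The signal was divided by the 75th percentile of the non-control spots of the array, log2 transformed, and averaged over the spots of a probe. The study divided by control probes. It counts more of them than the 536 control features marked here, so scaling by these features is not known to be its own. They had a median signal of 1.73 to 6.36 units, where the 75th percentile was 2470 to 4202 units. A probe was tested in a muscle where 11 or more of the 32 arrays read it well above background, with limma 3.58.1 in R 4.3.3, with the 4 groups of stress and diet in each muscle or all 8 groups together (10441 probes in the LT, 10305 in the ST, 10254 in both). All tests were two-sided, with Benjamini-Hochberg adjustment over every probe tested in a comparison. The log2 fold change of a gene is the mean of its probes. The period of slaughter is not in the labels and was left out. Precision is limited by how many arrays there are.

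The cow number pairs the muscles of the same animal: the deviations of a cow in the LT and the ST correlated with r = 0.11 to 0.77 (median 0.44), above 0.1 in 32 of 32 cows, and 26 of the 32 LT arrays correlated best with the ST array of their own cow. The genes, lists and tests were chosen with earlier results of these data known. Members were named in the text when called, when among the 6 uncalled with the smallest stress p in a muscle, when among the 10 largest called muscle differences in each direction, when among the 3 most or least variable, or when not tested; DDX19A, HNRNPK and the single arrays were also chosen after their values were seen. Accessions of 10 members were found in a table of RefSeq genes, where DDX39 is DDX39A. The alternatives were scaling by control features, normexp with quantile normalization, no filter on dim probes, the mean of probes, the slide, the scan day and the cow as blocks, and leaving out cows. The fit was tested on simulated data.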

Additional observations from a re-analysis of the deposited data

How the results depend on the processing

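The numbers of members called for stress in the ST, for the diet, for the interaction of stress and diet and for that of muscle and stress were 0 under all settings run. For stress in the LT, 1 member was called with the normexp correction, without the filter on dim probes, with the mean of probes, with the slide or the scan day as a block and without cow321, which was left out after seeing the data, and 0 with control features (DDX5, 0.12) or with the cow as a replicate block (DDX5, 0.30, adjusted p = 0.116). Over these settings the share of all genes called for stress in the LT ranged from 0.812% (control features) to 5.61% (cow as a replicate block). Leaving out each cow in turn, also chosen after seeing the data, gave DDX5 a log2 fold change of 0.24 to 0.33 and a call in 27 of 32 cases, and changed no call between the muscles. Between the muscles, 6 of 16 members were called with control features, 9 with the scan day, 11 with the slide or normexp, 12 without the filter or without cow321, and 13 with the mean of probes or with cow as a replicate block, a fit that added LSM5 (adjusted p = 0.0400), with or without the slide as a random block. The share of all genes called moved as well. It was 32.9% with control features, 34.5% with the scan day, 40.8% with the slide and 49.7% with normexp. Without the filter it was 41.0%, without cow321 52.3% and with the mean of probes 57.5%. With the cow as a replicate block it was 61.7%, and 46.8% with the slide as a random block too, against 51.7% in the main setting. With control features DDX20 turned to 0.014, DDX39 to 0.0071, DDX3X to 0.014 and U2AF1 to 0.035; this scaling moved the median of all genes by -0.18 for stress in the LT, 0.10 for stress in the ST and 0.19 between the muscles. Other causes of these changes were not tested. Of 400 values of single members under the alternatives, 370 were counted as kept, and these stayed on their side of the threshold. Some of them near 0 changed sign. For stress in the ST with normexp, RBM3 went from -0.018 to 0.0014 and KHDRBS3 from -0.00052 to 0.018. With control features the genes called over the whole array were 35 in the LT (161 in the main setting) and 38 in the ST (153), and 1392 between the muscles (2189). KHDRBS3 was well above background on 30 LT and 24 ST arrays, and with normexp its log2 difference between the muscles was 0.14 (0.54 in the main setting).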
